A study of Mus musculus with 4 samples.

Results

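The clathrin coat and its endocytic adaptors were described here through 10 genes, Clta, Cltb, Cltc, Ap2a1, Ap2b1, Ap2m1, Ap2s1, Picalm, Snap91 and Dnm1, taken by symbol from 27998 genes in the short-read matrices, of which 16612 had at least 1 unique molecular identifier (UMI, 1 counted cDNA molecule) in the cells kept. These genes had 46 annotated isoforms with a UMI in the long-read matrices, of 31947 isoforms in all. The cells came from embryonic day 18 (E18) brain (cortex, hippocampus and ventricular zone combined) of 1 untreated C57BL/6 mouse with no engineered allele. A droplet emulsion of 1 cell suspension was split into aliquots of 190 and 951 cells, and both were sequenced on Illumina (3′ ends, gene level) and on Nanopore (whole cDNA, isoform level), which gave 4 libraries.

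Clathrin forms the lattice of coated vesicles from three-legged units, each built of heavy chains with bound light chains. At the plasma membrane, the 4-subunit adaptor AP2 links clathrin to cargo and to the lipid PI(4,5)P2, CALM (Picalm) and AP180 (Snap91) add further clathrin and SNARE binding, and the GTPase dynamin-1 (Dnm1) cuts the vesicle free. Neurons use this machinery to recover synaptic vesicle membrane after release, and both light chains are known to have neuronal forms with extra residues near the part that binds the heavy chain.

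The cells with at least 1400 genes detected were kept, 186 of 190 and 935 of 951, with 1809081 and 8295650 Illumina UMIs and 993220 and 4889148 Nanopore UMIs assigned to 1 isoform. They were clustered on Illumina counts without the 10 genes and without 52 other genes of endocytosis and vesicle coats among the variable genes, so that these genes did not shape the classes. Names were given from marker lists: radial glia-like (20 and 86 cells in the 190- and 951-cell aliquots), cycling radial glia-like (24 and 94), mature glutamatergic-like (43 and 238), immature GABAergic-like (31 and 142), immature glutamatergic-like (37 and 194), mature GABAergic-like (17 and 127) and Cajal-Retzius-like (4 and 13). A cluster of 10 and 41 cells led by Tac2, Pcp4 and Unc5d had markers of intermediate progenitors and of immature neurons among its leading genes and stayed unnamed, as cluster 8. The immature GABAergic-like cluster was led by Ebf1 and Isl1 and the mature one by Sst and Maf, so these clusters differ in the kind of neuron as well as in maturity. The cycling radial glia-like name rested on a list of 8 cell cycle genes, such as Top2a and Mki67, with no radial glia gene. All 8 were raised, and the intermediate progenitor list came second, at a mean log2 fold of 0.89. The name thus shows that these cells were cycling, and it does not settle which kind of progenitor they were. The radial glia-like markers were clear (10 of 10 raised, mean log2 fold 3.63), with the intermediate progenitor list second at 1.25. By contrast, 1 of the pair of mature glutamatergic-like clusters had 3 of 8 markers raised. The other, led by Crym and Nrp2, had 4 of 8, with a mean log2 fold of 0.84 against 0.52 for the immature glutamatergic list. At a clustering resolution of 1.2 a cluster of 7 and 65 cells led by Crym and Nrp2 was named immature glutamatergic-like. The boundary between both glutamatergic-like classes thus depended on the clustering. The radial glia-like class also held cells of other types in the 951-cell aliquot, since 6 of its 86 cells had at least 10 UMIs over the markers of microglia (3 cells), endothelium (2) or mural cells (3), and none in the 190-cell aliquot or in another class did. Microglial markers (C1qa, Tyrobp and 4 others) thus summed to 423.2 CPM (UMIs scaled to the same library total) there, mural markers to 170.3 and endothelial markers to 79.8, and none of the microglial or mural markers was at 0. The 4 markers of oligodendrocyte precursors (Olig1, Olig2, Pdgfra and Cspg4) summed to 77.0 and 66.5 CPM in radial glia-like and 135.2 and 158.0 in cycling radial glia-like cells, against at most 5.29 in the named neuron classes that entered the fits, and their part in the results was not tested. Erythroid genes were at 675 and 591 CPM over all cells of the aliquots, between 552 and 790 in each named class. Each class was summed within its aliquot, and the aliquots are technical replicates of 1 suspension, so p-values measure only the spread between aliquots and intervals on shares cover counting error only. The aliquots shared 13 barcodes, 12 of them among the cells kept.

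The sequences of interest were 3 cassette exons of the light chain genes, shown because they distinguish the light chain isoforms whose shares are given by cell class. Clta (clathrin light chain A) lies at chr4:44004452-44032846 on the + strand and Cltb (clathrin light chain B) at chr13:54592401-54611344 on the − strand of GRCm38. In the lines that follow, capitals mark the cassette exon and the lower-case letters are 20 bases of the neighbouring exons on each side, read 5′ to 3′ along the transcript from the Gencode vM21 transcripts.
Clta 54-base exon (chr4:44030215-44030268, + strand, exon 5 of Clta-204): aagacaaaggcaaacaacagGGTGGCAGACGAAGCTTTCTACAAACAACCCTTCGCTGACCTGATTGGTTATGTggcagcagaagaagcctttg
Clta 36-base exon (chr4:44031400-44031435, + strand, exon 6 of Clta-205): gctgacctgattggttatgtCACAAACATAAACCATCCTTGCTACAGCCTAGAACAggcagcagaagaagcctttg
Cltb 54-base exon (chr13:54597026-54597079, − strand, exon 5 of Cltb-201): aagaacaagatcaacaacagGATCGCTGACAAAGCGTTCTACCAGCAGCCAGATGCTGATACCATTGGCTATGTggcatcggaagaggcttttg

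All 3 exons are coding and keep the frame, adding 18 codons (both 54-base exons) or 12 codons (the 36-base exon). The 54-base exons of Clta and Cltb sit between exons with 112 and 169 coding bases in both genes. They match at 37 of 54 bases (68.5%), compared base by base and not by codon. The 36-base exon follows the 54-base exon in Clta-205, so its left-hand lower-case bases are the end of the 54-base exon.

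Clta was read as 6 isoforms. Clta-204, which has the 54-base exon and lacks the 36-base exon, held 2201 of the gene's 3718 Nanopore UMIs (59.2%), and Clta-206, which lacks both, held 1316 (35.4%). Clta-205, with both exons, held 91 UMIs (2.45%), Clta-201 held 88 (2.37%), and Clta-203 and Clta-202 held 20 and 2. The 54-base exon was thus in 357 of 568 UMIs (62.9%) in the 190-cell aliquot and in 1935 of 3150 (61.4%) in the 951-cell aliquot, a mean of 62.1% ± 1.01 (SD, n = 2 aliquots).

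Inclusion of the Clta 54-base exon differed strongly between the cell classes. In radial glia-like cells it was found in 7 of 66 UMIs (10.6%, 95% exact binomial interval 4.37 to 20.6%) in the 190-cell aliquot and in 21 of 369 (5.69%, 3.56 to 8.57%) in the 951-cell aliquot. In mature glutamatergic-like cells it was found in 173 of 209 UMIs (82.8%, 77.0 to 87.6%) and in 928 of 1134 (81.8%, 79.5 to 84.0%). The lower bound of each mature aliquot was thus far above the upper bound of each radial glia-like aliquot. In mature GABAergic-like cells it was found in 30 of 39 UMIs (76.9%, 60.7 to 88.9%) and in 223 of 271 (82.3%, 77.2 to 86.6%).

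The other classes in the fits fell between these ends. Cajal-Retzius-like cells, of which there were 4 and 13, entered no fit and are left out of the order given here. Cycling radial glia-like cells had the exon in 24 of 83 UMIs (28.9%) and 59 of 297 (19.9%), and in the 951-cell aliquot their interval (15.5 to 24.9%) lay above that of radial glia-like cells (3.56 to 8.57%). Cluster 8 had 16 of 22 (72.7%) and 84 of 142 (59.2%), and immature GABAergic-like cells had 32 of 51 (62.7%, 48.1 to 75.9%) and 175 of 339 (51.6%, 46.2 to 57.1%). Immature glutamatergic-like cells had 70 of 88 (79.5%, 69.6 to 87.4%) and 413 of 562 (73.5%, 69.6 to 77.1%), so their 190-cell interval overlapped that of mature glutamatergic-like cells. Ordered by the mean of both aliquots, inclusion ran from radial glia-like (8.15%) through cycling radial glia-like (24.4%), then immature GABAergic-like (57.2%), cluster 8 (65.9%), immature glutamatergic-like (76.5%) and mature GABAergic-like (79.6%) to mature glutamatergic-like cells (82.3%). The ranges of both aliquots overlapped between cluster 8 and immature GABAergic-like cells, and likewise between mature GABAergic-like cells and both glutamatergic-like classes. With 2 aliquots per class, an exact permutation test of 1 share could not have passed 0.05, so tests were made in a fit across all genes.

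**Figure D1:**
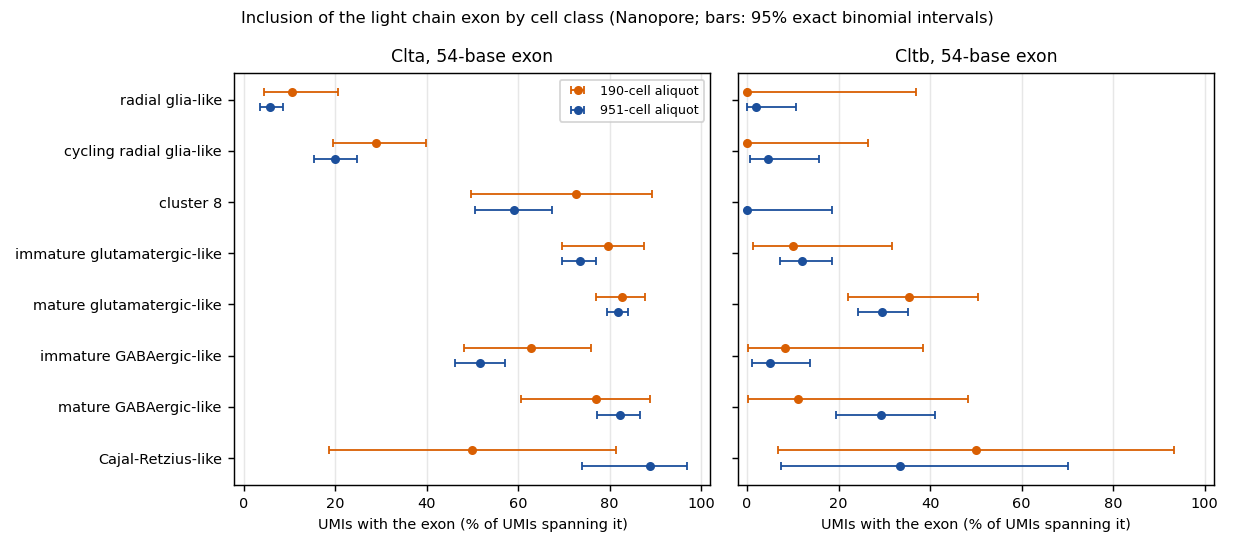
Share of Nanopore UMIs that contain the 54-base exon of Clta (left) and of Cltb (right), in % of the UMIs spanning it (x axis), for each cell class (y axis) and aliquot (orange, 190 cells; blue, 951 cells), with 95% exact binomial intervals as bars. Clta inclusion was 10.6% and 5.69% in radial glia-like cells and 82.8% and 81.8% in mature glutamatergic-like cells, and Cltb inclusion stayed at or below 35.4% outside the Cajal-Retzius-like cells, which had 4 and 9 Cltb UMIs.

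Isoform usage was tested on summed Nanopore UMIs with edgeR's quasi-likelihood F test for differential splicing, over 468 genes of which 2 or more isoforms were counted often enough. Clta (Clta-204 and Clta-206) and Cltb (Cltb-201 and Cltb-202) could be tested, and none of the other 8 genes or of the 52 further endocytic genes had 2 isoforms past the filter. From radial glia-like to mature glutamatergic-like cells both genes passed (2 of 2, where 22.2% of the 468 genes passed), Clta with an adjusted p of 5.67e-17, ranked 3 of 468, and Cltb with 0.000274. From radial glia-like to mature GABAergic-like cells both passed again (17.7% of genes did), with adjusted p of 7.35e-15 for Clta, ranked 2, and 0.00303 for Cltb. The Clta calls held when any 1 of the 4 sums compared was left out, with adjusted p up to 3.10e-10 and 1.09e-07. The Cltb calls were lost without the radial glia-like sum of the 951-cell aliquot (adjusted p 0.175 and 0.238) and, for GABAergic-like cells, without their own 951-cell sum (0.561).

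In CPM of Nanopore UMIs, Clta-204 was at 51.0 and 31.7 CPM in radial glia-like cells, 560.6 and 552.5 in mature glutamatergic-like cells, and 575.2 and 598.9 in mature GABAergic-like cells. Clta-206 went the opposite way, with 386.1 and 495.3 CPM in radial glia-like cells, 110.1 and 115.3 in mature glutamatergic-like cells, and 134.2 and 124.2 in mature GABAergic-like cells. The order of both isoforms was the same in both aliquots, with no overlap between radial glia-like and mature cells. The share of all isoforms without overlap was not computed, so no result is read from that.

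Within the neurons the shares differed less. From immature to mature GABAergic-like cells the mean share of the Clta exon was higher by 22.4 percentage points, and Clta passed the test (adjusted p = 0.00152, edgeR, ranked 2 of 468, 1.28% of genes passing). This call was lost without the 951-cell sum of either class (adjusted p 0.657 without the immature and 0.494 without the mature cells) and without a filter on low counts (adjusted p 1). From immature to mature glutamatergic-like cells the Clta share was higher by 5.79 points, with adjusted p = 0.279 and, with the aliquot as a block, 0.0291. Between both mature classes the mean shares differed by −2.70 points (GABAergic-like minus glutamatergic-like) with adjusted p = 0.931, where 1.5% of genes passed.

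Because radial glia-like cells held so few UMIs with the exon, membership mattered for that low share. Scrublet marked 3 of the 106 radial glia-like cells as doublets, and without them the share was 1 of 41 UMIs (2.44%) and 16 of 364 (4.40%). When the endocytic genes were allowed among the variable genes, an intermediate progenitor-like cluster led by Eomes and Neurog2 formed, with the exon in 17 of 37 UMIs (45.9%) and 94 of 222 (42.3%). The radial glia-like class of that clustering had 13 and 59 cells in place of 20 and 86, with the exon in 6 of 44 (13.6%) and 11 of 289 (3.81%). An intermediate progenitor-like cluster also formed at a clustering resolution of 1.2, with the exon in 17 of 37 UMIs (45.9%) and 89 of 250 (35.6%). The radial glia-like class then had 13 and 56 cells. The main radial glia-like class, the reference of the comparisons above, may thus hold intermediate progenitor-like cells. Without the 6 cells with microglial, endothelial or mural markers the share was 18 of 312 (5.77%) in the 951-cell aliquot.

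Single cells were then viewed one by one where they had at least 5 Clta Nanopore UMIs, which 292 cells had. Molecules with and without the exon were found together in 190 of these cells, with the exon only in 61 cells, and without it only in 41 cells. Of 34 radial glia-like cells 27 had only molecules without the exon, 6 had both and 1 had only molecules with it. Of 142 mature glutamatergic-like cells none had only molecules without it, 103 had both and 39 had only molecules with it, and the median cell was at 83.3%. Of 27 cycling radial glia-like cells 12 had only molecules without it, and the median was 16.7%. With at least 10 Clta UMIs, 31 of 39 cells had both kinds of molecule. A cell with few UMIs can show 1 kind by sampling alone, so these counts describe molecules seen and not the full content of a cell.

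**Figure D2:**
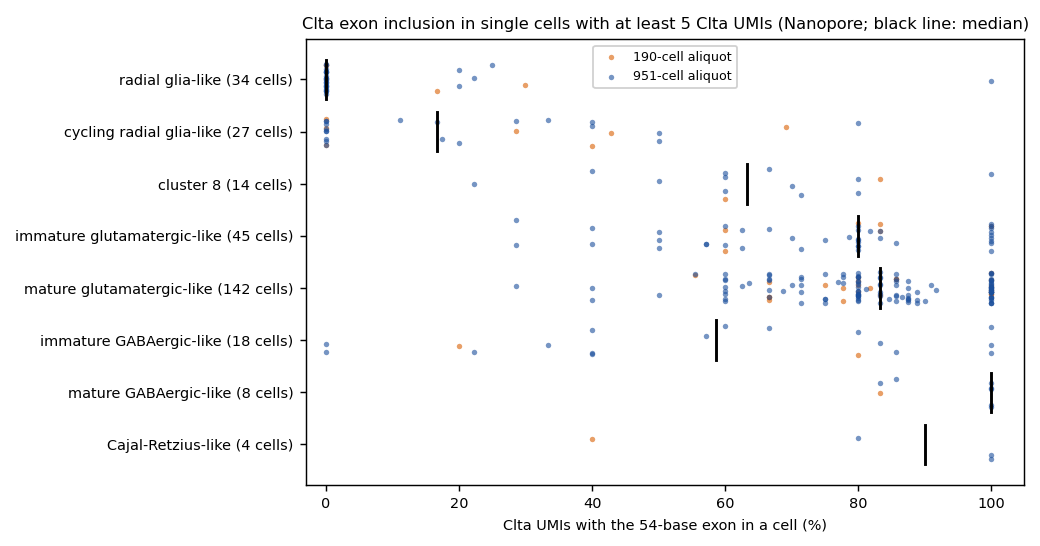
Share of Clta Nanopore UMIs with the 54-base exon (x axis, %) in each cell with at least 5 Clta UMIs, by cell class (y axis, with the number of cells), each point 1 cell (orange, 190-cell aliquot; blue, 951-cell aliquot) and each black line a class median. Radial glia-like cells gather at 0 (27 of 34 cells), and the 142 mature glutamatergic-like cells reach down to 28.6% with a median of 83.3%.

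The 36-base exon of Clta was rare, in 13 of 568 UMIs (2.29%) and 98 of 3150 (3.11%). Radial glia-like cells had it in 1 of 66 and 0 of 369 UMIs, where a count of 0 allows a share of up to 0.813% in the 951-cell aliquot, and mature glutamatergic-like cells in 7 of 209 (3.35%) and 51 of 1134 (4.50%). Clta-205 and Clta-203, which carry it, did not pass the filter on low counts, so no test was made.

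Cltb was read as 3 isoforms. Cltb-202, which lacks the 54-base exon, held 636 of 827 UMIs (76.9%), Cltb-201, which has it, held 153 (18.5%), and Cltb-204, annotated as a retained intron, held 38 (4.59%). The exon was in 23 of 113 spanning UMIs (20.4%) in the 190-cell aliquot and 130 of 676 (19.2%) in the 951-cell aliquot, and thus far less common than the Clta exon.

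Among the classes in the fits, the Cltb exon was close to absent in radial glia-like and cycling radial glia-like cells. It had its highest mean share in mature glutamatergic-like cells. Cajal-Retzius-like cells, in no fit, had it in 2 of 4 and 3 of 9 spanning UMIs, and cluster 8 in 0 of 18 UMIs, all from the 951-cell aliquot, which allows up to 16.7%. Radial glia-like cells had it in 0 of 8 and 1 of 50 UMIs (2.00%), and cycling radial glia-like cells in 0 of 12 and 2 of 43 (4.65%), where counts of 0 allow shares of up to 37.5% and 25.0%. Mature glutamatergic-like cells had it in 17 of 48 (35.4%, 22.2 to 50.5%) and 82 of 278 (29.5%, 24.2 to 35.2%). Immature glutamatergic-like cells were lower, at 2 of 20 (10.0%) and 17 of 142 (11.97%). Mature GABAergic-like cells had it in 1 of 9 (11.1%) and 22 of 75 (29.3%, 19.4 to 41.0%), and immature GABAergic-like cells in 1 of 12 (8.33%) and 3 of 61 (4.92%). Immature glutamatergic-like cells thus already had most Clta molecules with the exon (76.5%) while their Cltb share was 10.99% (means of both aliquots).

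From immature to mature glutamatergic-like cells the Cltb share was higher by 21.5 points, with an adjusted p of 0.0499 (edgeR, rank 14 of 468, 2.99% of genes passing). That call did not hold when any 1 of the 4 sums was left out (adjusted p 0.220 to 0.724), nor without the cells whose barcode was in both aliquots (0.0786). From immature to mature GABAergic-like cells the Cltb share was higher by 13.6 points with adjusted p = 0.0896, and 0.0239 with the aliquot as a block. In levels, Cltb-201 was at 0 and 1.51 CPM in radial glia-like cells and 56.7 and 51.4 in mature glutamatergic-like cells, while Cltb-202 was at 58.3 and 74.0 CPM in the former and 103.4 and 122.8 in the latter. Both Cltb isoforms were thus higher in mature glutamatergic-like cells, in contrast to the opposite directions of the Clta pair.

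The isoforms of the other 8 genes varied less or were too rarely read. Ap2m1-202 held 2408 of 2544 UMIs (94.7%) of Ap2m1, the gene of the cargo-binding mu subunit of AP2, and a retained-intron transcript, Ap2m1-209, held 92 (3.62%). Ap2s1-201 held 1994 of 2017 UMIs (98.9%) of Ap2s1, the gene of the small sigma subunit. In every class and aliquot the leading isoform held at least 85.7% of Ap2m1 and at least 90.0% of Ap2s1. Ap2m1-201, whose coding sequence is 6 bases longer than that of Ap2m1-202, was read in 2 UMIs.

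Outside the light chains, 12 internal exons in 6 genes were present in some and absent from other isoforms, each spanned by 5 to 73 UMIs over all cells. The best balanced was a 42-base exon of Ap2b1 (chr11:83364795-83364836, + strand, 14 codons), the gene of the beta subunit of AP2, found in 3 of 11 UMIs (27.3%) and 21 of 40 (52.5%). In mature glutamatergic-like cells it was in 1 of 1 and 13 of 18 UMIs (72.2%), too few for a comparison between classes. Of the heavy chain gene Cltc, 67 of 74 UMIs were Cltc-202, whose transcript of 6519 bases was the longest of the gene. Of Dnm1, 5 and 6 of 11 UMIs carried 1 or the other of a pair of mutually exclusive 139-base exons.

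At the gene level, Illumina UMIs gave the following picture of the 10 genes across the classes. The light chain gene Clta was found at 376.8 and 405.4 CPM in radial glia-like cells, 490.3 and 483.5 in mature glutamatergic-like cells, and 456.2 and 500.4 in mature GABAergic-like cells. Among the 7 classes tested its lowest level was in cycling radial glia-like cells, at 315.6 and 333.8 CPM. From radial glia-like to both mature classes, the total level of Clta thus differed by less than the levels of Clta-204 and Clta-206.

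Cltb was at 60.8 and 63.9 CPM in radial glia-like cells and 67.6 and 60.6 in cycling ones, against 119.8 and 145.7 in mature glutamatergic-like and 114.1 and 137.0 in mature GABAergic-like cells. Immature glutamatergic-like cells (121.0 and 119.1 CPM) and immature GABAergic-like cells (105.3 and 97.0 CPM) were also above radial glia-like and cycling radial glia-like cells in each aliquot. The heavy chain gene Cltc (chr11:86694351-86757565, − strand) was at 56.7 and 66.5 CPM in radial glia-like and 46.1 and 73.6 in mature glutamatergic-like cells, which overlap, and was lowest on average in cycling radial glia-like cells, at 25.8 and 31.8.

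Of the AP2 genes, Ap2b1 (chr11:83299024-83405035, + strand) was lowest in radial glia-like cells, at 28.4 and 41.7 CPM, and was at 83.0 and 93.5 in mature glutamatergic-like and 103.7 and 82.9 in mature GABAergic-like cells. Ap2m1 (chr16:20535478-20544909, + strand) rose from 271.5 and 256.4 CPM in radial glia-like cells to 431.3 and 396.7 in mature glutamatergic-like and 549.6 and 460.5 in mature GABAergic-like cells. Ap2s1 (chr7:16738410-16749294, + strand) was at 198.5 and 192.5 CPM in radial glia-like cells and 311.5 and 274.1 in mature glutamatergic-like cells. For these 3 AP2 genes the radial glia-like and mature glutamatergic-like aliquots did not overlap. The same was true of Cltb, Snap91 and Dnm1, and of Clta, Ap2a1 and Picalm, which were not called in the main edgeR test given below. This thus does not set the 3 genes apart. The share of all genes without overlap was not computed, so no result is read from it. Ap2a1 (chr7:44900373-44929496, − strand), which encodes 1 form of the alpha subunit, was at 36.5 and 47.0 CPM in radial glia-like and 57.1 and 54.1 in mature glutamatergic-like cells.

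The adaptor genes differed from each other. Snap91 (chr9:86765923-86880654, − strand), the neuronal AP180, was at 8.10 and 6.21 CPM in radial glia-like cells (2 and 7 UMIs) and at 53.5 and 42.3 in mature glutamatergic-like cells (29 and 115 UMIs). In mature GABAergic-like cells Snap91 was at 20.7 and 38.2 CPM (2 and 24 UMIs). Picalm (chr7:90130213-90213465, + strand), its widely expressed relative, was at 24.3 and 22.2 CPM in radial glia-like cells and 27.7 and 25.0 in mature glutamatergic-like cells.

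Dnm1 (chr2:32308471-32353338, − strand) was rare, with 54 Illumina UMIs in 52 cells. Radial glia-like cells had 0 UMIs in both aliquots, which allows up to 2.18 CPM over the class, and mature glutamatergic-like cells had 5 and 27 UMIs (9.22 and 9.94 CPM). The pooled level in mature glutamatergic-like cells, 9.82 CPM, was 4.50 times that limit. Mature GABAergic-like cells had 0 and 2 UMIs (0 and 3.19 CPM), and immature GABAergic-like cells 1 and 9 (5.85 and 10.9 CPM). Dnm1 did not pass the filter on low counts, so the main edgeR fit did not test it. DESeq2 did not call it from radial glia-like to mature glutamatergic-like cells (log2 fold change 4.74, adjusted p = 0.147).

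**Figure D3:**
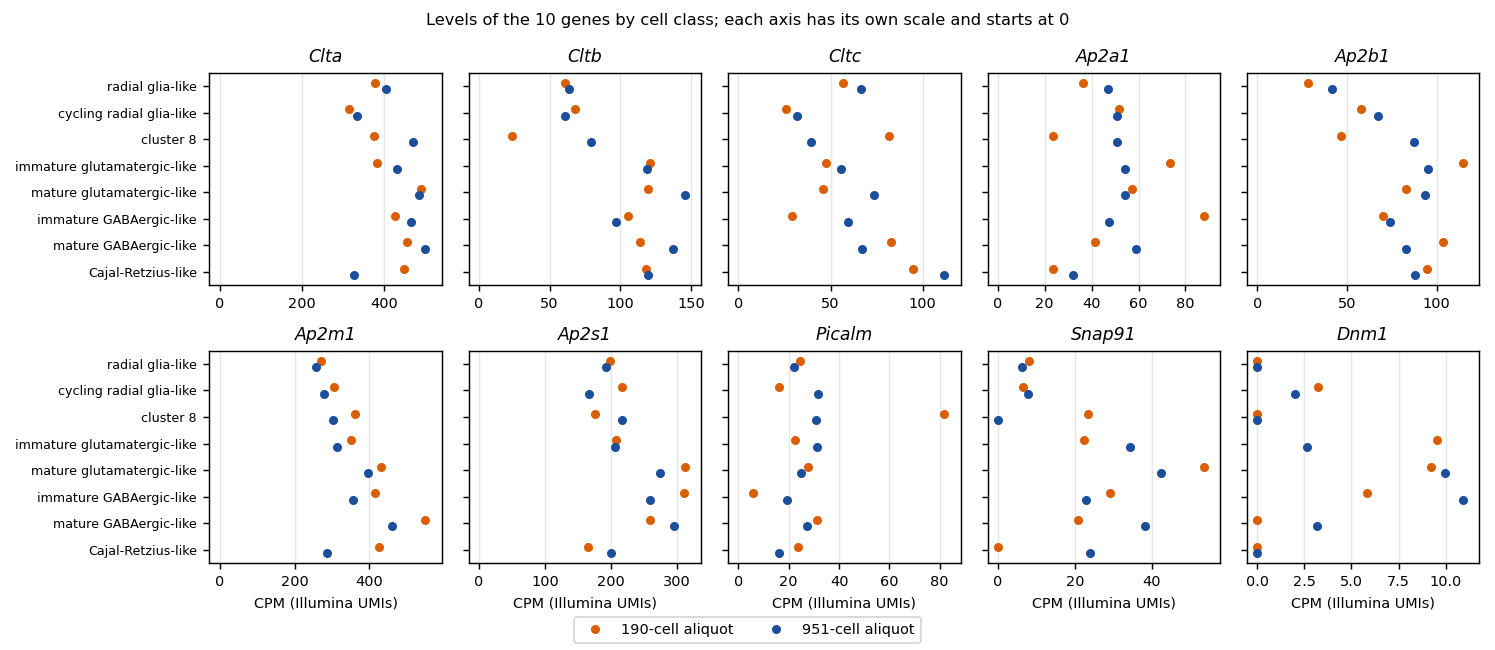
Level of each of the 10 genes in CPM of Illumina UMIs (x axis, own scale per gene, from 0) in each cell class (y axis), each point the sum of 1 aliquot (orange, 190 cells; blue, 951 cells). Clta, Cltb, Ap2a1, Ap2b1, Ap2m1, Ap2s1, Picalm and Snap91 are lower in radial glia-like than in both mature neuron classes within each aliquot. Of these, Clta, Ap2a1 and Picalm were not called in the main edgeR test of either mature class. The share of all genes with this order was not computed.

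Gene levels were tested with edgeR's quasi-likelihood test on 14 sums (7 classes, 2 aliquots), over 7738 genes. For DESeq2 and for fits with a sum left out, the share of all genes called is not given here. Counts from those fits thus cannot be set beside that of all genes. From radial glia-like to mature glutamatergic-like cells, 5 of the 9 genes tested were called and all 5 were higher in the mature cells, where 16.3% of all genes were called higher and 17.5% lower. Snap91 had a log2 fold change of 2.78 ± 0.53 (SE, 6.88-fold, adjusted p = 5.2e-05), Ap2b1 of 1.22 ± 0.26 (2.33-fold, 0.00029) and Cltb of 1.10 ± 0.24 (2.15-fold, 0.000328). Ap2m1 at 0.65 ± 0.18 (1.57-fold, adjusted p = 0.00364) and Ap2s1 at 0.58 ± 0.20 (1.50-fold, 0.0184) changed less. The 4 genes not called were Clta at 0.31 ± 0.18 (adjusted p = 0.179), Ap2a1 at 0.33 ± 0.30 (0.456), Picalm at 0.19 ± 0.43 (0.790) and Cltc at 0.00 ± 0.28 (0.997). With the aliquot as a block Clta passed as well (adjusted p = 0.0194, with 22.2% of all genes called higher and 24.2% lower). The median log2 fold change of the 9 genes was 0.58, beside −0.03 over all genes tested. DESeq2 called 2 of the genes (Snap91 and Ap2m1), and without the 951-cell radial glia-like sum edgeR called 3 (Snap91, Ap2b1 and Cltb). The Ap2m1 call was lost only there among the 4 sums left out in turn (adjusted p = 0.0632), whereas that of Ap2s1 held in 1 of these 4 fits (adjusted p 0.0475 to 0.132).

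From radial glia-like to mature GABAergic-like cells, 4 of 9 were called, all higher in the mature cells, where 14.1% of all genes were called higher and 17.4% lower. These were Snap91 at 2.24 ± 0.61 (log2 fold change and SE, adjusted p = 0.00397), Ap2b1 at 1.07 ± 0.31 (0.00634), Cltb at 0.94 ± 0.27 (0.00646) and Ap2m1 at 0.79 ± 0.19 (0.00101). Ap2s1, at 0.41 ± 0.21, had adjusted p = 0.140, and 0.0177 with the aliquot as a block (17.7% of all genes higher, 22% lower). Clta was at 0.17 ± 0.18 (0.538) and Cltc at 0.03 ± 0.34 (0.978). The calls rested much on the 951-cell aliquot, since without its mature GABAergic-like sum 1 gene was called (Ap2m1), without its radial glia-like sum 2 were (Ap2b1 and Ap2m1), and DESeq2 called 1 (Ap2m1). Both comparisons share the radial glia-like sums. Without the 6 cells with microglial, endothelial or mural markers 5 and 4 of the 9 genes were called in these comparisons, and both light chains for isoform usage in each.

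**Figure D4:**
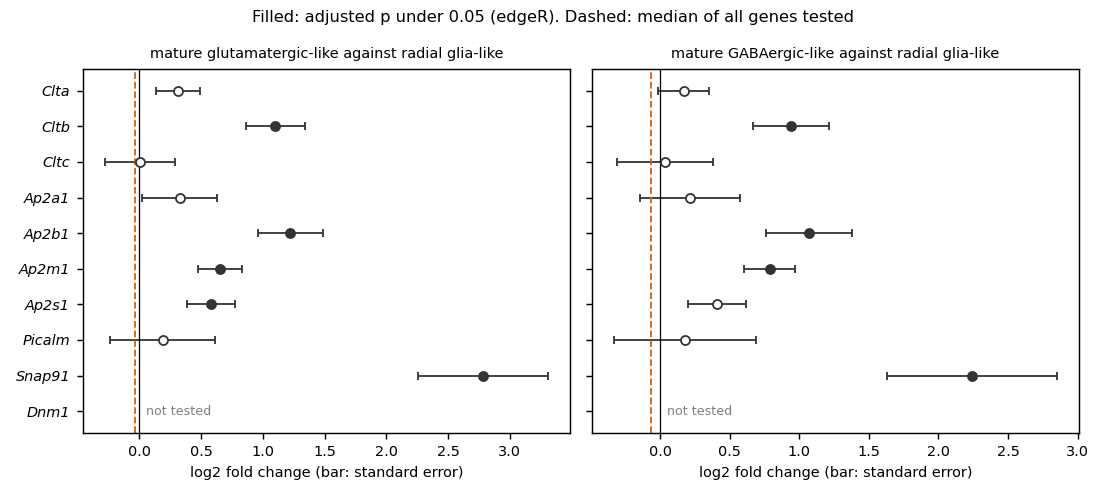
Log2 fold change of Illumina levels (x axis, bars are standard errors) of the 10 genes (y axis) in mature glutamatergic-like (left) and mature GABAergic-like cells (right) against radial glia-like cells, with filled points for adjusted p under 0.05 in edgeR and a dashed line at the median of all genes tested. Snap91, Ap2b1, Cltb and Ap2m1 are filled in both panels, Ap2s1 in the left one, and Cltc lies near 0 in both.

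Nanopore UMIs summed over isoforms gave a second reading of the genes that were read often enough. From radial glia-like to mature glutamatergic-like cells, all 4 of the genes that could be tested were called higher in edgeR (18.4% of 4394 genes were called higher and 23.1% lower), Clta at a log2 fold change of 0.41 (adjusted p = 0.0309), Cltb at 1.33 (8.5e-06), Ap2m1 at 0.89 (1.67e-05) and Ap2s1 at 0.66 (0.00199). From radial glia-like to mature GABAergic-like cells 3 of the 4 were called higher (15.4% of genes higher, 22.8% lower), Cltb at 1.33 (adjusted p = 0.000153), Ap2m1 at 1.04 (6.95e-06) and Ap2s1 at 0.56 (0.0245), and Clta, at 0.34, had adjusted p = 0.129. The molecules are the same cDNA as in the Illumina libraries, so this is not an independent sample.

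Between mature and immature glutamatergic-like cells 0 of 9 genes passed in edgeR, where 2.16% of all genes were called higher and 1.63% lower. The share of all genes with an unadjusted p under 0.05 was not computed, so no result is read from counts at that limit. In edgeR 2 genes were under it, Ap2s1 at 0.56 ± 0.19 (adjusted p = 0.107) and Ap2m1 at 0.39 ± 0.18 (0.307). With the aliquot as a block both were called (0.00151 for Ap2s1 and 0.00997 for Ap2m1), as they were on Nanopore UMIs (0.0319 and 0.0491, 4.05% of genes higher and 2.34% lower), while DESeq2 called 0. Between mature and immature GABAergic-like cells 0 of 9 passed, with 0 at an unadjusted p under 0.05 in edgeR and 0 in DESeq2 (1.32% of genes higher, 1.68% lower). Between the mature GABAergic-like and glutamatergic-like classes 0 of 9 passed as well, with 0 at an unadjusted p under 0.05 and 0 in DESeq2 (3.41% higher, 5.98% lower). The widest of these last differences was Snap91, at −0.54 ± 0.45 (GABAergic-like minus glutamatergic-like, adjusted p = 0.596).

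The partners of the coat were read from 3 further lists, 35 accessory and regulatory factors, 10 trans-Golgi adaptor genes and the 7 genes of the AP-3 adaptor of endosomes. Of 27 accessory genes tested, 10 were higher and 4 lower in mature glutamatergic-like than in radial glia-like cells, with a list median of 0.53, where 16.3% of all genes were called higher and 17.5% lower. Higher were the membrane-bending and scission factors Sh3gl2 (endophilin A1, log2 fold change 3.93), Dnm3 (dynamin-3, 2.84), Sh3gl3 (2.03) and Amph (amphiphysin, 1.55). Higher too were the early scaffold genes Sgip1 (2.89), Itsn1 (intersectin-1, 2.19), Fcho1 (1.98) and Epn1 (epsin-1, 0.88), the lipid phosphatase gene Synj1 (1.47) and the other AP2 alpha subunit gene, Ap2a2 (0.93). Lower were Pacsin3 (−3.10) and Pacsin2 (−2.53), which encode membrane-bending proteins of the syndapin family, Necap2 (−1.56) and Hip1 (−1.05). Adjusted p for these 14 genes lay between 1.04e-08 (Sh3gl2) and 0.0280 (Hip1).

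In mature GABAergic-like against radial glia-like cells 8 of 27 accessory genes were higher and 3 lower, with a list median of 0.55, where 14.1% of all genes were called higher and 17.4% lower. Dnm3 (3.41), Amph (3.36), Sh3gl2 (3.03), Sgip1 (2.996), Fcho1 (1.90), Pip5k1c (encoding a kinase that makes PI(4,5)P2, 1.49), Ap2a2 (1.07) and Epn1 (0.87) were higher and Hip1 (−1.23), Pacsin3 and Pacsin2 were lower. Pacsin3 had 13 and 57 UMIs in radial glia-like cells and 0 and 1 in mature GABAergic-like cells, a ratio of levels of 36.9 (6.41 to 1477), and Pacsin2 had 7 and 32 against 0 and 1, a ratio of 20.5 (3.48 to 832) (exact 95% counting intervals). The counts of the other lists stand beside the same shares of all genes, 16.3% higher and 17.5% lower for glutamatergic-like and 14.1% higher and 17.4% lower for GABAergic-like cells. Of 7 trans-Golgi adaptor genes tested, 2 were higher in mature glutamatergic-like cells, the AP-1 subunit genes Ap1s2 (0.71) and Ap1m1 (0.71), and 1 in mature GABAergic-like cells, Ap1s2 (1.30). Of the 7 AP-3 genes, Ap3b2, the neuronal beta subunit, was higher in both (3.37 and 3.58), and Ap3s1 (−0.66) and Ap3m1 (−1.68) were lower in mature GABAergic-like cells. All 32 calls of partner genes in both comparisons held, in the same direction, without the 6 cells named above.

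Within and between the neuron classes, 2 of 27 accessory genes were called in each of the 3 comparisons, and with the aliquot as a block 5 (mature against immature glutamatergic-like), 4 (mature against immature GABAergic-like) and 5 (between the mature classes) were called. Of all genes, 2.16% were called higher and 1.63% lower in the first of these comparisons, 1.32% and 1.68% in the second and 3.41% and 5.98% in the last. With the block these shares were 6.94% and 4.73%, then 2.77% and 3.62%, and lastly 5.97% and 9.77%. Sh3gl2 was higher in the mature than in the immature class of both neuron types. Its log2 fold change was 1.85 ± 0.35 for glutamatergic-like and 2.15 ± 0.51 for GABAergic-like cells (edgeR, adjusted p 0.00064 and 0.00902). The pair of GABAergic-like classes differs in the kind of neuron as well. Among the mature glutamatergic-like clusters, Sh3gl2 was a leading gene of that led by Crym and Nrp2 and not of the other. The boundary between both glutamatergic-like classes depended on the clustering, as given above. Whether the Sh3gl2 difference in glutamatergic-like cells follows maturity or the kind of neuron was not tested. Itsn1 was higher in mature than in immature glutamatergic-like cells (0.79 ± 0.23, 0.0471), and Amph in the mature GABAergic-like class (1.81 ± 0.46, 0.0168). Between the mature classes Amph was higher (1.80 ± 0.40, adjusted p = 0.00176) and Itsn1 lower (−1.39 ± 0.29, 0.000787) in GABAergic-like cells. No trans-Golgi or AP-3 gene passed in these 3 comparisons, while with the block 1 AP-3 gene was called lower in mature than in immature glutamatergic-like cells, and 1 trans-Golgi gene was called higher in mature GABAergic-like than in glutamatergic-like cells.

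Across the 14 sums, the genes with a level most like each of the called genes were named by Pearson's r of log2(CPM + 10), over 5904 genes, as a description, since the sums share libraries and depth. Snap91 was most like Syngr3 (r = 0.934), Reep1 (0.891) and Myo5a (0.891). Ap2m1 was most like Pcmtd1 (0.940), Cmas (0.936) and Amph (0.932). Cltb was most like Gsto1 (0.944), Sfxn3 (0.940) and Ddx55 (0.922), Ap2b1 like Commd3 (0.930), Nrep (0.921) and Ap3b2 (0.905), and Ap2s1 like Arf5 (0.878), Eid1 (0.874) and Gnao1 (0.867).

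The long reads recovered these genes unequally. Recovery here counts only UMIs assigned to an isoform by a full exon match. A molecule that was read but not assigned thus counts as not recovered. Clta, Cltb, Ap2m1 and Ap2s1 were recovered best, but of these only Clta and Cltb had 2 isoforms past the filter of the usage test. Clta had 745 and 3663 Illumina UMIs and 568 and 3150 isoform-assigned Nanopore UMIs, that is 76.2 and 86.0 Nanopore per 100 Illumina UMIs in the 190- and 951-cell aliquots. Ap2s1 was at 78.0 and 85.8, Cltb at 69.1 and 76.9, and Ap2m1 at 66.4 and 73.5, all above the 54.9 and 58.9 of all genes together. The other 6 genes were recovered far less, Dnm1 at 30.0 and 25.0, Picalm at 24.4 and 17.4, Cltc at 12.8 and 12.4, Snap91 at 8.16 and 9.65, Ap2b1 at 8.09 and 5.99, and Ap2a1 at 0.990 and 3.25. The groups of 4 well and 6 poorly recovered genes were taken from these same values, so their separation is a description and not a test.

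The well recovered genes had the shorter transcripts. The median annotated coding transcript was 604 bases for Ap2s1, 1004 for Cltb, 1110 for Clta and 2080 for Ap2m1, and between 3005.5 (Ap2b1) and 6163 bases (Cltc) for the other 6. Spearman's rho between that length and the recovery was −0.745 over the 10 genes and −0.448 over 8935 genes with at least 50 Illumina UMIs. Over those genes the median recovery was 68.6 for 4116 genes of up to 2000 bases, 44.7 for 3193 genes of 2000 to 4000 bases and 20.5 for 1626 longer genes. The 4 well recovered genes lay above the median of their length class in both aliquots, and the other 6 below it. Of the 15 UMIs of Ap2a1, 9 were of the retained-intron transcript Ap2a1-211, which has 693 bases.

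In edgeR over 9855 genes and 4 libraries, 9 of the 10 genes differed between the platforms, 4 higher and 5 lower in Nanopore relative to its library, where 20.2% of all genes were called higher and 30.3% lower. Ap2a1 had the widest gap, with a log2 fold change of −4.25 ± 0.28 (adjusted p = 0.000227), followed by Ap2b1 at −2.997 ± 0.173 (0.000153), Snap91 at −2.48 ± 0.22 (0.00062), Cltc at −2.02 ± 0.21 (0.00104) and Picalm at −1.44 ± 0.22 (0.00356). Ap2s1 at 0.65 ± 0.09 (0.00235), Clta at 0.64 ± 0.11 (0.00567), Cltb at 0.50 ± 0.15 (0.0318) and Ap2m1 at 0.42 ± 0.09 (0.0106) were higher. Dnm1, at −1.0 ± 0.37, had adjusted p = 0.0646, and 0.0184 with the aliquot as a block. Of the lists, 3 of 30 accessory genes tested were higher and 14 lower in Nanopore, 1 and 2 of 8 trans-Golgi adaptor genes, and 2 and 0 of 7 AP-3 genes.

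**Figure D5:**
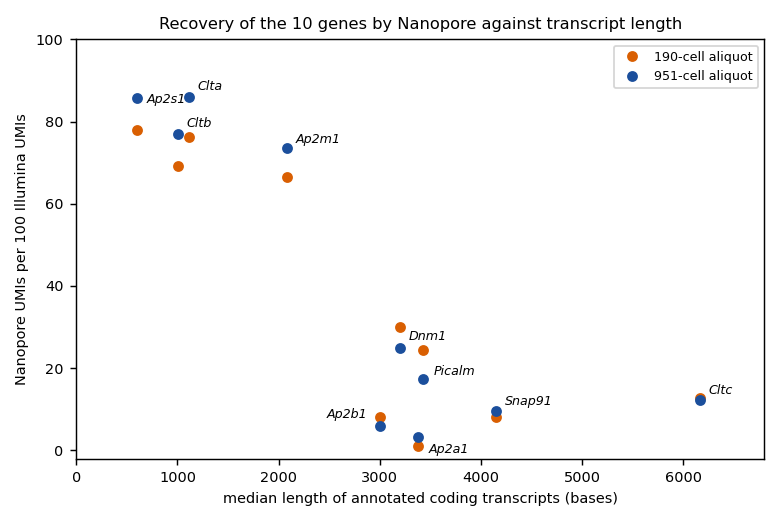
Nanopore UMIs assigned to an isoform per 100 Illumina UMIs (y axis) against the median length of the annotated coding transcripts in bases (x axis) for the 10 genes, each point 1 aliquot (orange, 190 cells; blue, 951 cells). Ap2s1, Cltb, Clta and Ap2m1, with medians of 604 to 2080 bases, lie between 66.4 and 86.0, and the 6 genes with medians of 3005.5 bases or more lie at 30.0 or below.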

How the data were processed

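Single-cell cDNA of E18 mouse brain was prepared with Chromium 3′ chemistry (version 2). The authors made the deposited Illumina UMI counts per gene and cell with Cell Ranger 2.0 on mm10 (GRCm38), per the labels. The deposited Nanopore counts are UMIs per annotated isoform and cell, for which the authors aligned reads with minimap2, took cell barcodes and UMIs with the help of the Illumina data, and required a full match to the exons of 1 Gencode vM18 transcript. The cDNA was amplified again for Nanopore. Whether these steps lowered the counts of long transcripts was not tested, and a molecule unread on Illumina could not be counted. Deposited barcodes served as cell names only, and counts of other samples were in 0 columns.

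Cells were log-normalised, integrated with CCA on 11 dimensions and clustered (Seurat 5.3.0, 2000 variable genes less 62 genes left out, resolution 0.8). Without this step 5 of the 62 would have been variable genes. A cluster took a name from at least 3 raised markers (log2 fold 0.5, in 10% of cells), limits set after the clusters were seen, and groups may differ from those of the study since names were rebuilt. Doublets (3 and 4 cells by Scrublet in scanpy 1.11.5) stayed in.

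UMIs were summed per aliquot and class (a class needed 5 cells per aliquot) and tested with edgeR 4.0.16 (TMM, filterByExpr, glmQLFTest or diffSpliceDGE, Benjamini-Hochberg over all genes, threshold 0.05), in R 4.3.3. The fits were also run on simulated counts, drawn independently and without an aliquot effect. That run cannot show how the fits behave on sums that share an aliquot. The aliquot numbers pair the sums because the libraries of an aliquot share cells and cDNA; deviations of same-aliquot sums correlated with r = 0.597 between platforms, a median of 0.228 (0.125 to 0.370, 21 pairs) over classes on Illumina and 0.0824 on Nanopore isoforms. Alternatives were the aliquot as block, DESeq2 1.42.0, RLE factors, limma-voom 3.58.1 for isoforms, no filter, other clusterings, removal of doublets, of shared barcodes or of cells with at least 10 UMIs of microglial, endothelial or mural markers (the last 2 added after the data were seen), and leaving out each sum. Exon intervals are exact binomial at 95%, and a count of 0 was given the limit of 3 counts. Sequences came from Gencode vM21 transcripts by transcript name, and no genome was used.

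The 10 genes were all named; isoforms were named from 5% of their gene's UMIs, or from 5% in a class with 20 UMIs of the gene, and exons where named isoforms differed in them; other endocytic genes were named where they passed a test. The genes and lists were chosen with earlier results of these data known.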

Additional observations from a re-analysis of the deposited data

Results flagged for a closer look

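Cajal-Retzius-like cells, early-born neurons of the marginal zone that express Reln, were too few in the 190-cell aliquot (4 cells, with 13 in the other) to enter any fit, and their Clta molecules were flagged as signal outside the comparisons. The 54-base exon was in 37 Clta UMIs from these cells, 5 of 10 in the 190-cell and 32 of 36 (88.9%) in the 951-cell aliquot. All 13 cells with a Clta Nanopore UMI had at least 1 with this exon.

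The 36-base exon was in 9 UMIs from 7 of these 17 cells, with at most 3 in 1 cell. These came from 0 of 10 UMIs in the 190-cell aliquot and 9 of 36 (25.0%) in the 951-cell aliquot, beside 3.11% over all cells of that aliquot. With 1 aliquot holding all 9 UMIs, the difference was not tested.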

How the results depend on the processing

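No called value changed sign, while 16 uncalled gene-level results did in 41 alternatives, none past the threshold. Cltc from radial glia-like to mature glutamatergic-like cells ranged from −0.46 to 0.25 when 1 sum was left out. At the gene level, 539 of 605 alternatives for single genes kept both their sign and their side of the threshold, and 15 lost and 10 gained a call. The remaining 41 are the sign changes without a call given above. The 5 genes called from radial glia-like to mature glutamatergic-like cells became 2 with DESeq2 and 3 to 5 when 1 sum was left out, and the 4 in mature GABAergic-like cells became 1 with DESeq2 and 1 to 4. Of isoform usage, 114 of 130 alternatives for single genes, called or not, kept their side of the threshold, and 14 lost and 2 gained a call. Of the 2 genes called in each comparison with radial glia-like cells, Cltb lost its call in some fits with 1 sum left out, as given above. Between mature and immature glutamatergic-like cells, the 1 gene called (Cltb) became 0 with RLE factors (adjusted p 0.0512), at resolution 1.2, without a filter on low counts (0.739), without shared barcodes (chosen after the data were seen) and when any 1 sum was left out (0 to 0). Between mature and immature GABAergic-like cells, the 1 gene called (Clta) became 0 without the filter, and 0 to 1 when 1 sum was left out. The fit without a filter tested more features, and leaving out a sum left 1 aliquot in that class, assumed to vary like the other classes. For the alternatives named in this paragraph the share of all genes called is not given, so their counts stand without it. Leaving out the 6 cells with microglial, endothelial or mural markers, also chosen after the data were seen, changed no count. Otherwise the cause was not tested.

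With the replicate block (the aliquot), 2 genes in place of 0 were called between mature and immature glutamatergic-like cells at the gene level, as on Nanopore UMIs (2), and 2 in place of 1 for isoform usage in both comparisons of mature with immature cells. Of all genes, the block called 22.2% higher and 24.2% lower from radial glia-like to mature glutamatergic-like cells, and 17.7% and 22% to mature GABAergic-like cells. With the block such a share is not given here for isoform usage or between platforms. The block counts there thus cannot be set beside those of all genes. In these 2 comparisons the block called 6 in place of 5 and 5 in place of 4 genes, and between platforms 10 in place of 9 of the 10 genes. The block left their other counts as they were. Of accessory genes, it called 16 in place of 14 and 13 in place of 11 against radial glia-like cells, and 20 in place of 17 between platforms, with 8 in place of 3 trans-Golgi genes there, and 3 in place of 2 trans-Golgi and 2 in place of 1 AP-3 genes from radial glia-like to mature glutamatergic-like cells. On platforms, 8 of 8 alternatives for the count stayed within 1.5 times of 9 genes, with 8 to 9 when 1 library was left out, and Cltb lost its call with DESeq2 (adjusted p 0.0566). Of 195 shares under alternatives, 169 pooled the UMIs of both aliquots. A pooled share lies between those of the aliquots, so it could not move by more than the spread. Of the shares taken over all isoforms of the gene, 25 stayed within the spread and 1 moved. Of 80 levels, 17 moved by more than the spread. Depth limits the isoforms of Cltc, Ap2a1, Ap2b1, Picalm, Snap91 and Dnm1, with 14 to 74 Nanopore UMIs each.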

Other observations

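The difference of the mature minus immature contrast between GABAergic-like and glutamatergic-like classes was fitted in edgeR after the data were seen. The GABAergic-like classes differ in the kind of neuron, so this does not measure maturation within a lineage. None of the 9 genes tested passed, where 165 of 7738 genes did, and neither light chain passed for isoform usage, where 1 of 468 genes did. For Clta usage the unadjusted p was 0.0128 and the adjusted p 0.667. Ap2s1 had the lowest unadjusted p at the gene level, 0.0248, with a difference of −0.66 on the log2 scale (GABAergic-like minus glutamatergic-like) and an adjusted p of 0.354. The Clta exon share was higher by 22.4 points in the mature GABAergic-like and by 5.79 points in the mature glutamatergic-like class than in the immature ones, and these differences were not shown to differ from each other.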
